A study of Mus musculus with 2 samples.

Results

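The enzymes that write and erase DNA methylation, together with the 2 histone methyltransferases of Polycomb repressive complex 2 (PRC2), were followed through chromatin accessibility data of the neonatal mouse spleen. The set is a fixed list of 9 genes, Uhrf1, Dnmt1, Dnmt3a, Dnmt3b, Tet1, Tet2, Tet3, Ezh2 and Ezh1. They were chosen by name, with earlier results of these data known, and all 9 were found among the 21911 protein-coding genes annotated. Spleens came from male B6CASTF1/J mice, first-generation hybrids of the strains C57BL/6J and CAST/EiJ, taken 4 days after birth. DNase-seq maps accessible chromatin by where the nuclease DNase I cuts it. The data hold 1 group of 2 libraries that the labels call biological replicates 1 and 2. Both libraries are untreated tissue, so no condition was compared, and no test between groups was possible. The labels give separate biosamples and 1 shared donor entry, so the spread between the replicates may not be a spread between animals.

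DNA methylation on CpG dinucleotides silences repeats, imprinted genes and many tissue-specific promoters. DNMT1 copies the mark to new strands after replication, guided by UHRF1, DNMT3A and DNMT3B set it de novo, and the TET dioxygenases oxidise 5-methylcytosine, which leads to its loss. PRC2 methylates H3K27 through EZH2, which is typical of dividing cells, or EZH1, which is also found in resting cells. In the blood lineages that fill the spleen, loss of DNMT3A or TET2 is known to favour expansion of stem cells, and EZH2 is required for early B cell development.

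Replicate 1 held 80323 peaks in the less strict of its deposited lists and replicate 2 held 88723, with a median width of 180 bp in both. Each peak carries the authors' signal, whose scale is not stated, with a median of 0.796 in replicate 1 and 0.650 in replicate 2. Read numbers are not part of these lists, so depth is unknown. As a check of the tissue, 5 of 5 erythroid and 4 of 4 B cell marker genes had a promoter peak in both libraries, against 0 of 3 hepatocyte and 0 of 3 pancreas genes. Over all protein-coding genes the share was 62%. Of the 3 genes listed for spleen stroma, Tlx1 and Madcam1 had one and Nkx2-5 had none in either library. One of 3 neuronal genes (Rbfox3) and 1 of 3 skeletal muscle genes (Ckm) also had one. In a whole tissue, fewer cells with an open site and a less accessible site in each cell cannot be told apart.

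All 9 genes had a peak within 1 kb of an annotated start site in both libraries, where 62% of all protein-coding genes did. Joined within 1 kb, their annotated starts form 3 to 10 groups per gene, against a median of 2 per protein-coding gene. More starts give more places for a peak, and the part of this was not tested. In the stricter peak lists it was again 9 of 9, against 56.5% of all protein-coding genes. Their promoters were not alike. The signal of the strongest promoter peak, averaged over the libraries, ran over a wide range, highest at Uhrf1, Ezh2 and Dnmt1, intermediate at Ezh1 and Tet3, and lowest at Dnmt3a, Tet2, Dnmt3b and Tet1. The median over the 9 genes was 6.60, against 5.75 over the 13581 genes open in both libraries.

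**Figure D1:**
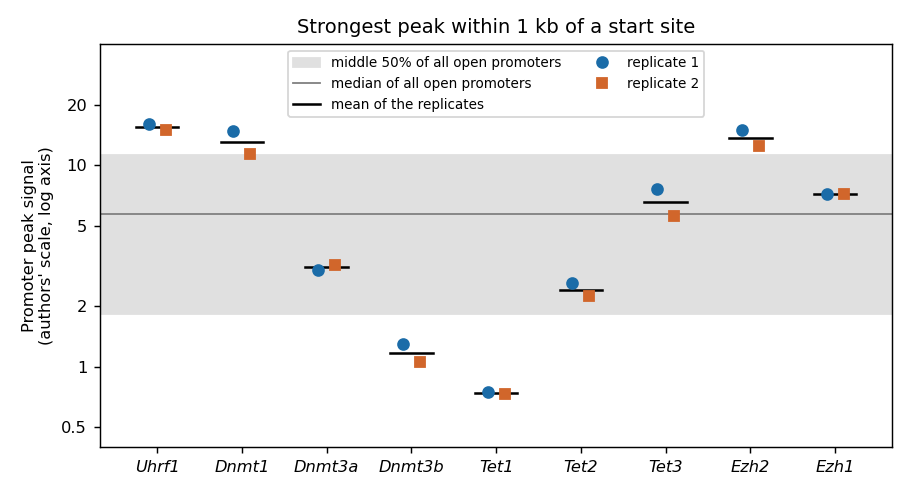
Strongest promoter peak of each gene, by signal (authors' scale, log axis) in replicate 1 (circles) and replicate 2 (squares), with their mean as a bar; the grey band and line give the middle 50% and the median of all promoters open in both libraries. Uhrf1, Dnmt1 and Ezh2 lie above the band, and Dnmt3b and Tet1 lie below it.

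The maintenance pair had strong promoters. Uhrf1, whose product recognises hemimethylated CpG and brings in DNMT1, had a promoter signal of 15.98 in replicate 1 and 15.03 in replicate 2 (15.5 ± 0.678, SD, n = 2). It was the highest of the 9 genes in both libraries and exceeded 87.9% of open promoters. Uhrf1 had 2 separate strong peaks. The weaker, with signals of 10.2 in replicate 1 and 7.56 in replicate 2, lay over the most upstream start, and the stronger lay 0.860 kb downstream of it, just before a second cluster of annotated starts. The weaker peak held footprints, short stretches protected from the enzyme, that both libraries shared. With 5 bp added to either end, as everywhere here, one of them held an E2F-type sequence beside a CCAAT box. Both peaks are shown outside annotated exons, on the plus strand of mm10 (GRCm38), because the downstream one is the strongest promoter peak of the 9 genes and the upstream one lies over the most upstream start. Capitals mark motif letters in footprints of both libraries: TTCCCGC (a form of the E2F site), CCAAT (NF-Y) and GGGCGG (SP and KLF factors), on either strand.
Uhrf1 upstream peak, chr17:56303181-56303320: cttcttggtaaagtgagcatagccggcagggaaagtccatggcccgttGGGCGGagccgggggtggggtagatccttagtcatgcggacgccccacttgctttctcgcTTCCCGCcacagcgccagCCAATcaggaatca
Uhrf1 downstream peak, chr17:56304081-56304280: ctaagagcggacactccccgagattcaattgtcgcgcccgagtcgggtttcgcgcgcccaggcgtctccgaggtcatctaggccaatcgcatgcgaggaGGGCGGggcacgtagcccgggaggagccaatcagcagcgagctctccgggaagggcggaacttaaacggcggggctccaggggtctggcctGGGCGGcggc

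Dnmt1, the maintenance methyltransferase itself, had a promoter signal of 14.8 in replicate 1 and 11.4 in replicate 2 (13.1 ± 2.40, SD, n = 2), above 81.7% of open promoters. A second peak reached 6.73 in replicate 1 and 5.31 in replicate 2. Both lay in the start group at chr9:20952605-20952979, where 4 start positions fall within 1 kb of each other. The most upstream annotated start of Dnmt1, 6909 bp further upstream, had no peak in either library and no position under the deposited false discovery rate (FDR) limit of 0.05. The other start groups, downstream at single non-coding transcripts, had none either. The annotation does not say in which cells a start is used, so the upstream start is given by position only. Most of the open stretch of Dnmt1 is exonic, and 3 footprints found in both libraries are therefore shown in windows of 30 bases on the minus strand of mm10. Capitals mark TTGGCGC, another form of the E2F site, in the first pair and GCGCNTGCG, the NRF1 site, in the last.
Dnmt1 footprint 71 bp downstream of a start, chr9:20952522-20952551: ctgTTGGCGCcaaaatgggtgggggccggg
Dnmt1 footprint 4 bp downstream of a start, chr9:20952582-20952611: gcgcgcatgcgcggggcagcgtTTGGCGCg
Dnmt1 footprint 32 bp downstream of a start, chr9:20952932-20952961: gcctccgttgcGCGCATGCGcactcccttc
The second of these footprints also holds an NRF1 match, upstream of its E2F-type letters.

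The de novo enzymes had weaker promoters. Dnmt3a, the de novo methyltransferase with known roles in blood stem cells, had a promoter signal of 3.03 in replicate 1 and 3.20 in replicate 2 (3.12 ± 0.122, SD, n = 2), above 34.4% of open promoters. Dnmt3b, the de novo enzyme best known from early embryos, had 1.29 in replicate 1 and 1.06 in replicate 2 (1.17 ± 0.164, SD, n = 2), above 18.7% of them. Both libraries put Dnmt3a above Dnmt3b without overlap. A second start group of Dnmt3a was open far inside the gene. It lies 85.7 kb downstream of the first, at chr12:3891728-3891744, and its strongest peak had signals of 0.704 in replicate 1 and 0.789 in replicate 2. A downstream promoter of mouse Dnmt3a is known to give a shorter protein, DNMT3A2, but the peaks do not show which transcript is made. Around that start, 4 shared regions of low signal followed each other, and the strongest was 460 bp wide. The upstream and downstream promoter stretches and that of Dnmt3b are shown outside exons on the plus strand of mm10, with GGGCGG in footprints in capitals and none in the stretch of Dnmt3b.
Dnmt3a upstream promoter, chr12:3806341-3806497: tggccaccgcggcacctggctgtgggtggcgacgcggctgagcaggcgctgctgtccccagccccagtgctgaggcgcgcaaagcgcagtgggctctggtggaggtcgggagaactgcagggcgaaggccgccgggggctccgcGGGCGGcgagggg
Dnmt3a downstream promoter, chr12:3891364-3891663: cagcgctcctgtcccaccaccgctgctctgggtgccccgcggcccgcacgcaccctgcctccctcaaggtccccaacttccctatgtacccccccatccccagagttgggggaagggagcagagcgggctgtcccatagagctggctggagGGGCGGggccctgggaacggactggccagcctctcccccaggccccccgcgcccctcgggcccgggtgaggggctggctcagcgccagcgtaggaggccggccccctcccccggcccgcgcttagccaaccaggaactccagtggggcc
Dnmt3b promoter, chr2:153649741-153649920: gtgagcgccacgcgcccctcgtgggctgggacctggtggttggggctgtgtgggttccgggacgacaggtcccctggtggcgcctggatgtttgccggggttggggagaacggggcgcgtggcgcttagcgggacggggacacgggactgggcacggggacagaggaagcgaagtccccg

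The 3 TET genes differed among themselves. Tet3 had a promoter signal of 7.60 in replicate 1 and 5.596 in replicate 2 (6.60 ± 1.41, SD, n = 2), above 54.7% of open promoters. Tet2 had 2.59 in replicate 1 and 2.24 in replicate 2 (2.41 ± 0.251, SD, n = 2), above 29.6% of them. Tet1 had 0.753 in replicate 1 and 0.732 in replicate 2 (0.742 ± 0.0149, SD, n = 2), above 11.9% of them and the lowest of the 9 genes. The order Tet3, Tet2, Tet1 held in both libraries with no overlap.

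Tet3 was open at 2 of its 3 start groups. Beside the group at chr6:83441632-83441678, which gave its promoter signal, the group at chr6:83456392 had its strongest peak at 3.47 in replicate 1 and 3.27 in replicate 2. The most upstream start, 2692 bp further upstream, had no peak. Tet1 was open at 2 of 7 start groups, both weakly. Its strongest promoter peak lay at the single non-coding transcript at chr10:62865304, inside the gene. The coding start group at chr10:62887324-62887512 reached 0.511 in replicate 1 and 0.495 in replicate 2, at 2 different sites. The site at chr10:62886951-62887254 had 0.511 in replicate 1 and 0.376 in replicate 2, and that at chr10:62887321-62887576 had 0.409 and 0.495. In the stricter lists this group had a peak in replicate 1 alone. Its lowest deposited FDR was 0.000548 in replicate 1 and 0.000155 in replicate 2. The coding start at chr10:62880014 had no peak in either library. Tet2 was open in both libraries at its most upstream start group and at none of the other 5. One stretch of each gene is shown outside exons on the minus strand of mm10, with GGGCGG (here read as CCGCCC) in footprints in capitals and none in Tet1.
Tet3 promoter, chr6:83441679-83441754: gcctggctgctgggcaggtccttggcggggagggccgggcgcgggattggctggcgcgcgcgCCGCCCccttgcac
Tet2 promoter, chr3:133544391-133544480: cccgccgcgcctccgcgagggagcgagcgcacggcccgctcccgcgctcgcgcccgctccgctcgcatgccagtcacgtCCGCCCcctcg
Tet1 internal start, chr10:62865363-62865662: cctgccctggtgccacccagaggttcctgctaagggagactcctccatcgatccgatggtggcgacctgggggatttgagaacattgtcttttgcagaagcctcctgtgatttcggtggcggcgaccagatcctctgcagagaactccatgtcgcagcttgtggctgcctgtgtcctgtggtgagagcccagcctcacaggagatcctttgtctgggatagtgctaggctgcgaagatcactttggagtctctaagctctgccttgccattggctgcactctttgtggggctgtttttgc

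The 2 PRC2 methyltransferases had different promoters as well. Ezh2 had a promoter signal of 15 in replicate 1 and 12.4 in replicate 2 (13.7 ± 1.81, SD, n = 2), above 83.5% of open promoters. Ezh1 had 7.17 in replicate 1 and 7.23 in replicate 2 (7.20 ± 0.0424, SD, n = 2), above 57.6% of them. The replicates of Ezh2 both lay above those of Ezh1. Ezh2 had 4 peaks at its start group in each library, including a second strong one of 10.2 in replicate 1 and 6.92 in replicate 2. The lowest deposited FDR in its start window was 2.34e-220 in replicate 1 and 5.52e-152 in replicate 2, and at Dnmt1 it was 5.49e-173 in replicate 1 and 2.83e-169 in replicate 2. Ezh1 had 1 peak at its upstream start group, where 22.5% of the words of 31 bases occur elsewhere in the genome, so reads there may be harder to place. A weaker site of Ezh1 lay 25.2 kb downstream, near the non-coding start at chr11:101200943, with 1.35 in replicate 1 and 1.24 in replicate 2. The stretches below lie outside exons, on the minus strand of mm10, and show motifs in footprints in capitals: ATTGG is CCAAT on the other strand, CCGCCC is GGGCGG, and CGCACGCGC is the NRF1 site GCGCNTGCG read on the other strand.
Ezh2 promoter, chr6:47595059-47595183: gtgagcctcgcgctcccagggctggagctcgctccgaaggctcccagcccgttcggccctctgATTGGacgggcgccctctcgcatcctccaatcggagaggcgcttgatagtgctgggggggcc
Ezh2 upstream peak, chr6:47595342-47595500: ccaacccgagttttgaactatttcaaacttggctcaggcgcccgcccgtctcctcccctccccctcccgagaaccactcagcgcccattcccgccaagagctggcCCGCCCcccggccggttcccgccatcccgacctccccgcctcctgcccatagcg
Ezh1 promoter, chr11:101226464-101226560: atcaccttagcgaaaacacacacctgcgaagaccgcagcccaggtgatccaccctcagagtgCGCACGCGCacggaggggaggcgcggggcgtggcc

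The annotation gives the 9 genes many starts, and most start groups were closed. Start sites within 1 kb of each other were joined, which left 50 start groups, against a median of 2 groups per protein-coding gene overall. Of these 50, 13 had a peak in both libraries (26%), against 34.1% of the 48570 start groups of all protein-coding genes. One more, Dnmt3a at chr12:3861021, had a peak of 0.398 in replicate 1 alone. The other 36 had none. Among the 26 groups with a protein-coding transcript 11 were open, against 45.8% of such groups over all genes, and among the 24 without one 2 were open, against 10.6%.

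Base composition was read beside the calls. The CpG ratio, observed over expected in the 1 kb around the most upstream start of a group, had a median of 0.545 in open groups and of 0.213 in groups without a peak. With a ratio of 0.5 or more, 10 of 11 groups were open, against 85.9% of such groups over all genes. With a ratio under 0.5, 3 of 39 were open, against 13.6%. The one closed group with a ratio of 0.5 or more was the Tet1 start at chr10:62880014, with a ratio of 0.634. Its G and C content was 45.3%, so a high ratio there does not mean many CpG. The open groups with a ratio under 0.5 were the upstream group of Dnmt3a (0.435), the internal Tet1 start (0.389) and the downstream Ezh1 start (0.139). For Dnmt3a the 1 kb was centred on chr12:3806007, while the starts of the group run to chr12:3807160, outside it. The ratio therefore does not describe that whole open stretch. Words of 31 bases that recur in the genome made up a median of 0.812% of the window in open groups and 4.63% in groups without a peak, up to 32.8% at Tet1, and the part of this in the absence of peaks was not tested. None of the 36 closed groups held a position under the FDR limit in either library, while all 13 open groups did in both. Peaks and positions come from the same libraries, so the positions are no separate evidence that a start is closed.

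**Figure D2:**
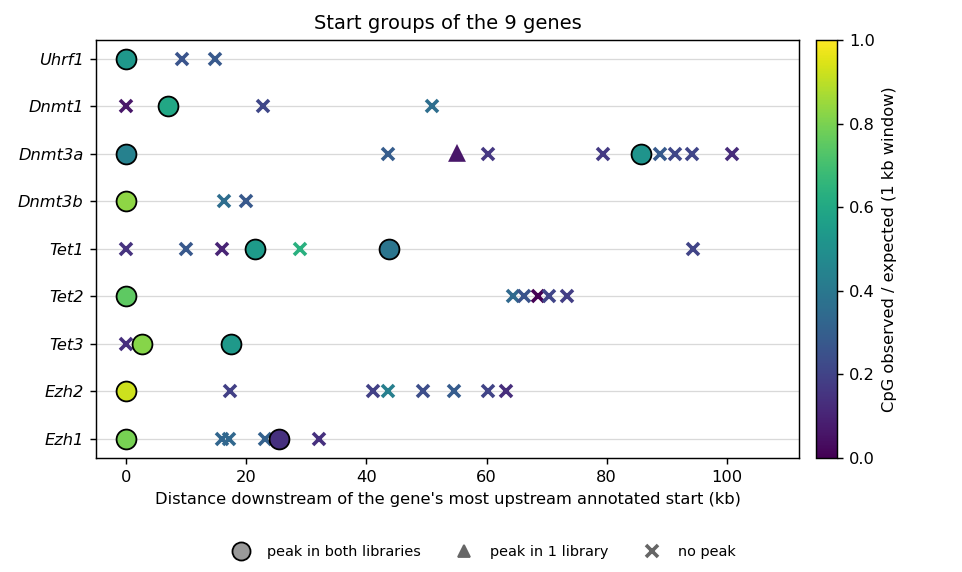
Start groups of each gene by distance downstream of its most upstream annotated start (kb), coloured by the CpG observed over expected ratio; circles had a peak in both libraries, the triangle in replicate 1 alone and crosses in neither. Of 50 groups, 13 are circles, and the crosses are mostly dark, which marks low CpG ratios.

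Footprints gave a finer view of the promoters. Within 1 kb of the start sites 62 footprints were found in both libraries, 12 at Tet3, 9 at Dnmt3a, 8 at Uhrf1, 7 each at Dnmt1 and Ezh2, 5 each at Dnmt3b, Tet1 and Ezh1 and 4 at Tet2. Counted by itself, with the shared ones included, replicate 1 held 117 there and replicate 2 held 132. For comparison, 66827 footprints of both libraries lay within 1 kb of the starts of protein-coding genes. Each was searched on both strands with 5 bp added to either end, for 16 short motifs. The motif CAGNNGGCG can hold the shorter motif CAGATG, and matches can share bases. A match names letters, not the protein bound.

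GGGCGG was held by 16 of the 62 footprints (25.8%), in 8 genes and not in Tet1, against 22.4% of all promoter footprints. NRF1 letters, GCGCNTGCG, were in 4 (6.45%), at Dnmt1, Ezh1 and Ezh2, against 3.32%. The 2 forms of the E2F site were in 2 footprints each (3.23%), TTCCCGC at Uhrf1 against 1.04% and TTGGCGC at Dnmt1 against 0.602%. E2F factors are known to drive genes of DNA replication. CCAAT was in 3 (4.84%), at Ezh2 and Uhrf1, against 5.22%, and the E-box CACGTG in 2 (3.23%), at Dnmt3a and Tet3, against 1.12%. CAGNNGGCG, a piece of the CTCF site, was in 1 (1.61%), at Dnmt3a, against 2.98%. The ETS letters CCGGAAG, the GATA factor letters AGATAA, the YY1 letters AANATGGCG, the ZBTB33 letters TCTCGCGAG, the CREB letters TGACGTCA, the AP-1 letters TGANTCA, the RUNX letters TGTGGTT, the PU.1 letters GAGGAAG and the E protein and TAL1 letters CAGATG were in none of the 62, and their shares over all promoter footprints ran from 0.193% to 2.32%. In the RefSeq promoter windows (300 bp, GRCm38.p6), matched for 9 of 9 genes, TTGGCGC stood in Dnmt1 and Ezh2, against 2.45% of 32851 windows. TTCCCGC stood in Uhrf1, against 4.60%, and the NRF1 letters in Dnmt1, Ezh1 and Ezh2, against 6.31%. GGGCGG stood in 7 genes (35.7% of all windows), CCAAT in 4 (37.4%) and the PU.1 letters in Dnmt1, Dnmt3a and Dnmt3b (13.6%). CACGTG (7.15%) and the CTCF piece (8.23%) stood in Dnmt3a, and the other motifs in none of the 9 genes. The genes have 1 to 3 windows each, so a number of genes is not on the same footing as a share of windows.

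Around the genes, 128 regions were open in both libraries within the gene bodies and 50 kb on each side. Of these 32 lay at the genes' own starts, 39 at the start of another protein-coding gene, 2 at the start of a non-coding gene and 55 away from any annotated start. The members had a median of 15 regions, or 10.8 per 100 kb, against 6 regions and 4.52 per 100 kb over all protein-coding genes. That background also holds genes without an open promoter, and the members were not alike. By regions per 100 kb, Tet2 exceeded 26.1% of protein-coding genes, Ezh2 42.8% and Tet1 49.0%. The others ran from 74.4% (Dnmt1) to 95.5% (Uhrf1). Peaks of the stricter lists of both libraries lay in 96 of the 128, against 69.1% of all 60596 shared regions, and a footprint of both libraries in 102, against 77.8%. Dnmt3a and Tet3 had 23 regions each, Uhrf1 21, Dnmt3b and Ezh1 15 each, Dnmt1 13, Tet1 9, Ezh2 6 and Tet2 3. Counted without replicate 1, the window of Dnmt1 held 26 peaks, and without replicate 2 it held 19.

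**Figure D3:**
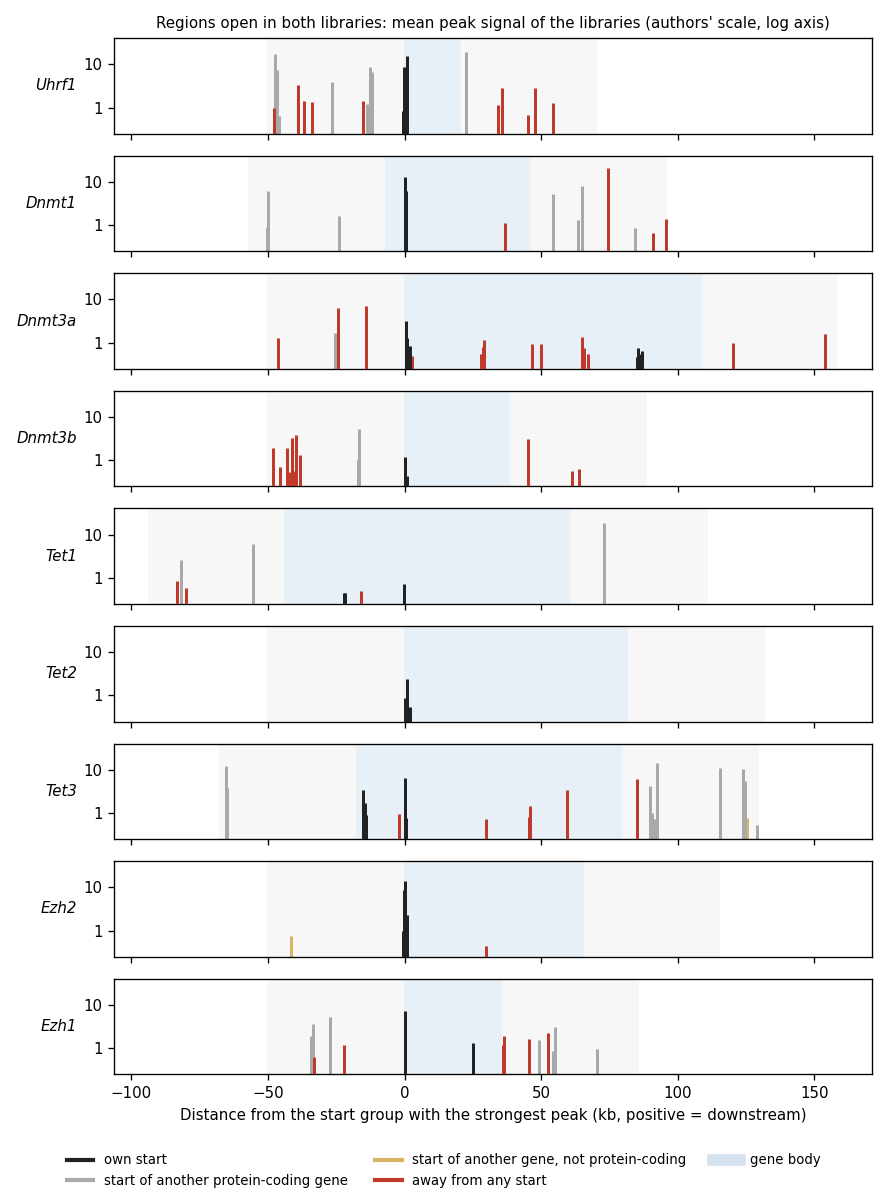
Regions open in both libraries in the gene body (blue) and 50 kb on each side (light grey), by distance from the start group with the strongest peak (kb), with the mean peak signal of the libraries (authors' scale, log axis) as bar height and the kind of position as colour. The window of Tet2 holds 3 regions, all at its own start, and that of Dnmt3a holds 14 away from any start.

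The Tet2 window was the sparsest. All 3 of its shared regions lay at its own start, and none lay over 1 kb from it in 181 kb. Taken alone, replicate 1 had 5 peaks in this window and replicate 2 had 6. Positions under the FDR limit covered 0.930% of the window in replicate 1 and 0.899% in replicate 2. The next lowest was Ezh2, with 1.76% in replicate 1 and 1.56% in replicate 2, and the highest was Uhrf1, with 7.15% and 9.16%. Away from its own starts, Ezh2 had a region of 0.930 in replicate 1 and 0.576 in replicate 2, 41.4 kb upstream at the start of a non-coding gene. Its other one, in an intron 29.8 kb downstream, had 0.602 in replicate 1 and 0.298 in replicate 2. No region of Ezh2 lay at the start of another protein-coding gene, while 8 of Uhrf1 and 7 of Dnmt1 did.

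Dnmt3a was the gene with the most regions away from any start, 14. The strongest lay 14.03 kb upstream, at chr12:3791901-3792060, with 6.76 in replicate 1 and 7.05 in replicate 2, about the same in both libraries and above the gene's own promoter. The second lay 24.3 kb upstream in Dtnb, with 6.28 in replicate 1 and 6.33 in replicate 2, and the third region away from its own starts lay at a start of Dtnb, with 1.81 and 1.52. Inside the gene body, 9 regions off its own starts ran from 0.462 to 1.398. The strongest upstream region is shown on the plus strand with motifs in footprints in capitals: CCAAT in 2 copies, CCGCCC, and CGCCACCTG, which is the CTCF piece on the other strand. In footprints of shared regions away from the starts of protein-coding genes those letters stood in 3.49%, 5.67% and 4.70% of cases, over the whole genome.
Dnmt3a upstream region, chr12:3791901-3792060: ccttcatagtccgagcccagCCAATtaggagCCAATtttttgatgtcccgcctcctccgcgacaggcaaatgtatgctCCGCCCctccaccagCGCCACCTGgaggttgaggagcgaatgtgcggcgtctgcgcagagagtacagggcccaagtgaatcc

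Tet3 had 6 regions away from any start. Of those described here, one lay in an intron of Tet3, 59.6 kb downstream of its start, with 3.93 in replicate 1 and 2.94 in replicate 2. The 3 strongest regions over 1 kb from Tet3 starts lay at the starts of its neighbours Bola3 (13.9 in replicate 1, 14.7 in replicate 2), Dguok (13.7 and 10.8) and the pair Mob1a and Mthfd2 (12.2 and 9.33).

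Dnmt3b had 11 regions away from any start. The strongest lay 39.7 kb upstream, with 3.95 in replicate 1 and 3.72 in replicate 2, above the gene's own promoter in both libraries. Others lay 41.1 kb upstream (3.74 in replicate 1, 2.72 in replicate 2) and 45.2 kb downstream (3.65 and 2.43). The start of Commd7, 16.7 kb upstream, had 5.58 in replicate 1 and 5.23 in replicate 2. For Dnmt1, a region 74.6 kb downstream of its start in Angptl6 was the strongest of all members away from a start, with 22.95 in replicate 1 and 18.7 in replicate 2. It held 7 footprints of both libraries. The starts of Ppan (9.52 in replicate 1, 6.88 in replicate 2) and Eif3g (5.61 and 5.06) followed.

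Uhrf1 had 10 regions away from any start, led by one 39.1 kb upstream, with 3.16 in replicate 1 and 3.48 in replicate 2 and a PU.1 sequence in a footprint. PU.1 is a factor of myeloid and B cells, and its letters stood in 0.974% of footprints away from coding starts. In the members' regions away from any start they stood in 2 of 96 footprints. The other was in the Dnmt3a region 24.3 kb upstream. The starts of Kdm4b (21.8 in replicate 1, 17.3 in replicate 2), Fem1a (20.03 and 13.9) and Plin3 (7.49 and 9.38) were stronger. Ezh1 had 6 regions away from any start, the strongest in its downstream neighbours Ccr10 and Cntnap1 with 2.39 in replicate 1 and 2.06 in replicate 2. The starts of Vps25 (5.93 in replicate 1, 4.69 in replicate 2), of Cntnap1 and Plekhh3 (3.10 and 3.13) and of Wnk4 (4.398 and 2.65) were stronger in both libraries. Tet1 had 3 such regions, the strongest 83.4 kb upstream in Dna2 with 0.962 in replicate 1 and 0.723 in replicate 2. The starts of Ccar1 (20.8 in replicate 1, 15.9 in replicate 2), Slc25a16 (6.77 and 5.35) and Dna2 (2.89 and 2.38) were stronger. Which gene a region acts on is not given by these data.

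The replicates were close at these regions. Over the 60596 regions shared in the genome the median log2 ratio of replicate 1 over replicate 2 was 0.16, and ratios were centred on it. At the 128 regions of the members the median centred ratio was 0.04, with a range of -0.77 to 0.85, and 3 lay outside the middle 95% of all shared regions, which ran from -0.72 to 0.59. These were the intronic region of Ezh2 (0.85), the start of Mrpl4 near Dnmt1 (0.66) and the start of Tubg2 near Ezh1 (-0.77). The regions of Ezh2 were above 0 in 6 of 6, with a median of 0.40, and those of Dnmt3a below 0 in 18 of 23, with a median of -0.19. In the windows of the members 64 peaks were seen in 1 library alone, 28 in replicate 1 and 36 in replicate 2, and 62 of them had a signal below 1.

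**Figure D4:**
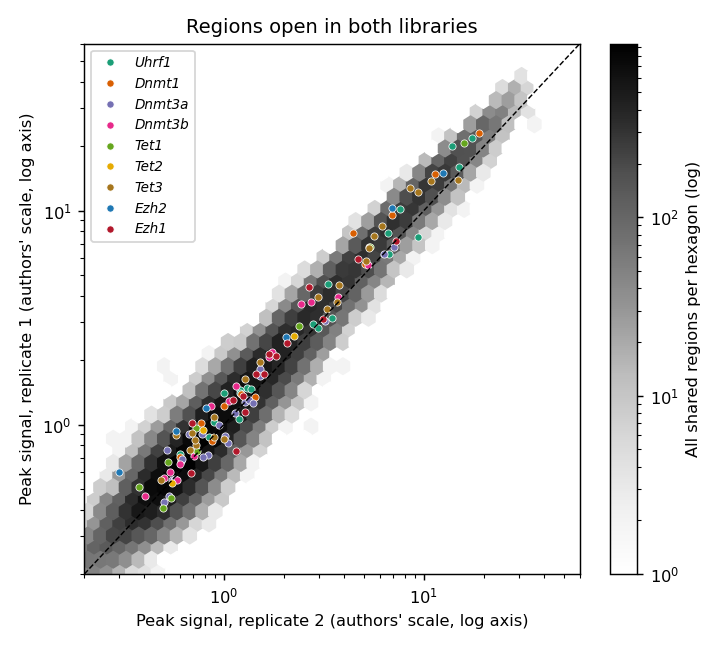
Peak signal of replicate 1 (vertical) against replicate 2 (horizontal), both on the authors' scale with log axes, at all 60596 shared regions (grey hexagons, by number) and at the 128 regions of the 9 genes (coloured points); the dashed line marks equal signals. The points follow the cloud of all regions, with the intronic Ezh2 region above it at the lower left.

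The partners of these enzymes were read from 5 lists of 61 genes in all. A promoter peak in both libraries was found for 58 of 61 (95.1%), against 62% of all protein-coding genes, and in the stricter lists for 56, against 56.5%. The 62% is also the share to set beside the count of each list. The median promoter signal of those open was 8.43, against 6.60 for the 9 genes. All 10 further PRC2 genes were open, with a median of 13.5. Eed and Suz12, the core subunits that EZH2 needs for activity and picked here for that role, had 15.2 and 14.3 in replicate 1 and 11.9 and 12.3 in replicate 2, close to Ezh2. The strongest of the list were Phf1 (21.9 in replicate 1, 16.9 in replicate 2) and Phf19 (19.1 and 17.2), Polycomb-like proteins that help bring PRC2 to chromatin.

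All 21 genes of PRC1, the complex that ubiquitinates histone H2A, were open, with a median of 5.62. Pcgf1 (23.3 in replicate 1, 20.1 in replicate 2) and Pcgf5 (20.5 and 17.5), subunits of variant PRC1, led them. Of the 6 H3K27 demethylases and H2A deubiquitinase genes 5 were open, led by Asxl2 (22.0 in replicate 1, 15.6 in replicate 2), a cofactor of the deubiquitinase BAP1, and Kdm6a (15.6 and 13.2), an H3K27 demethylase. Asxl3 had a peak of 0.315 in replicate 2 alone.

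Among the DNA methylation partners and readers 12 of 14 were open. The methyl-CpG binding family members Mbd3 (22.96 in replicate 1, 19.4 in replicate 2) and Mbd2 (17.4 and 16.6) were strongest. Dnmt3l, the germline cofactor of the de novo enzymes, and Dppa3, which guards the methylation of the early embryo, had no promoter peak in either library. All 10 genes of the demethylation partners were open, with Gadd45b (16.7 in replicate 1, 14.9 in replicate 2) and Gadd45a (14.98 and 11.3) strongest.

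**Figure D5:**
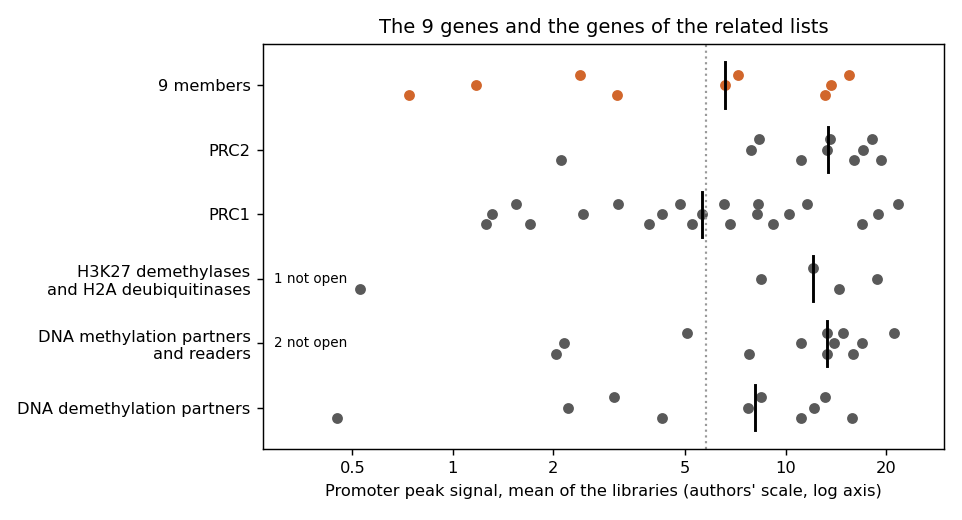
Promoter peak signal (mean of the libraries, authors' scale, log axis) of the 9 genes (orange) and of the genes of the 5 related lists that were open in both libraries (grey), with the median of each row as a bar and that of all open promoters as a dotted line. The medians are 6.60 for the 9 genes and 13.5 for PRC2, and 3 listed genes were not open.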

How the data were processed

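DNase-seq libraries of 2 replicates of neonatal spleen were used, on mm10 per the labels. For each library the authors deposited a less strict and a stricter peak list, where every peak has a signal, and also footprints and stretches of positions whose false discovery rate (FDR, a q-value) is under 0.05. The aligner was not given in the sources used here, and the same holds for the callers, the scale of the signal and the placing of reads with CAST/EiJ alleles. Signals below 1 came in steps of 0.00538 (replicate 1) and 0.00409 (replicate 2), to within 0.05 of a step, so the libraries were scaled separately. Depth is unknown, since read totals did not enter, and no counting interval is given.

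Genes were those of GENCODE vM21. Start sites within 1 kb of each other formed a start group. A gene or group was open where each library had a peak within 1 kb of a start. Peaks of the 2 libraries that overlapped by at least 1 bp were merged into shared regions, each with the highest signal per library, and counted in the gene body plus 50 kb on each side. Footprints of both libraries were treated alike. Distances run from midpoints. Exact motif letters were sought in mm10, and repeated words are stretches of 31 bases found more than once in it. No CAST/EiJ sequence was searched or shown, so letters and matches on CAST/EiJ alleles may differ. The interval steps were tested on simulated peaks. The 9 genes, the lists and the motifs were chosen with earlier results of these data known. Named were all 9 genes, up to 3 regions over 1 kb from each gene's own starts by the lower of the 2 signals, the 2 strongest genes of each list and those not open. Beside these, the strongest region of each gene away from any start, and Eed and Suz12, are named. For Tet3 that strongest region is not reported here and the next one is given. Alternatives were each library alone, the stricter list, windows of 500 and 2500 bp, flanks of 10 and 100 kb, an overlap of 50%, coding transcripts only, single start positions, a common median signal and uncentred ratios. Python 3.11.15, numpy 2.4.6, pysam 0.24.0, samtools 1.23.1 and matplotlib 3.10.9 were used.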

Additional observations from a re-analysis of the deposited data

How the results depend on the processing

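No paired analysis was possible because the replicates form a single group. Alternatives for the gene counts were each library alone, the stricter list, both other windows and coding transcripts only. The 9 open genes remained 9 in each, and the 58 open related genes ran from 56 to 59 of 61. The 13 open start groups stayed within 1.5 times their value under the same alternatives, while counting each start position by itself gave 41. Single positions are more numerous than the 50 groups, so 41 is not a part of those 50. The share over all genes was not computed for single positions. The 26% and 34.1% therefore hold only for starts joined within 1 kb. The 128 shared regions became 56 with a flank of 10 kb. The 62 footprints of both libraries compare with 117 in replicate 1 and 132 in replicate 2, each with the shared ones included. The median log2 ratio of 0.04 became 0.21 when not centred, since centring takes off the same amount everywhere. Promoter signals gave the same peak under both other windows and the stricter list. With n = 2, leaving out a library cannot move a mean by more than the SD, so this shows nothing of stability. With signals scaled to a common median, Ezh1 alone moved by more than the SD, to 7.27. Shared regions per gene moved by over 1.5 times in 13 of 54 alternatives, among them Tet1, with 5 in place of 9 in the stricter list. Footprints per gene did so in 16 of 45, among them Tet1, with 1 in place of 5 at an overlap of 50%. The strongest region off a gene's starts moved in 10 of 40, each a change of flank.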
